A study of Mus musculus with 8 samples.

Results

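The plasma cell versus B cell regulator circuit is a set of 10 genes for transcription factors that hold a B cell in its state or move it towards antibody secretion. Its members were the genes of the deposited expression table whose Ensembl identifiers carry the symbols Prdm1, Irf4, Bhlha15, Bach2, Pax5, Bcl6, Ebf1, Irf8, Foxo1 and Mitf in the GENCODE M21 annotation, and all 10 were found among the 26589 genes of the table. RNA of mouse splenic B cells was sequenced in 8 libraries, 4 from IL-10+ and 4 from IL-10- cells. Both groups came from the IL-10-eGFP Tiger strain, in which a green fluorescent protein reports transcription of Il10, and both were purified as B cells, cultured for 48 h with lipopolysaccharide (LPS) at 3 µg/ml and separated by sorting. Every group thus carries the reporter and the LPS treatment, and no group without LPS enters a comparison. The labels also tag every sample as untreated, against their own protocols, and the protocols were followed. The sources used here do not state age, sex, the purity of the sort or whether replicates were separate mice or cultures, so that p-values cover only the spread among the libraries at hand, some of which may be technical.

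Blimp-1, the protein of Prdm1, is a repressor that shuts down the B cell programme and is needed for full antibody secretion. Irf4 at high level favours Prdm1, while Bach2, Pax5 and Bcl6 hold it back in B cells, and Prdm1 in turn represses several of them, so the members are known as a switch with opposing sides. The B cell side also holds Ebf1, Irf8, Foxo1 and Mitf, and the plasma cell side Irf4 and Bhlha15.

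The sort separated the libraries by Il10, which had 36.9 ± 5.32 FPKM in IL-10+ libraries and 3.17 ± 1.48 FPKM in IL-10- libraries (± SD, 4 libraries each). FPKM is a gene's read count divided by its exon length and by the total of the library. Library totals recovered from the values lay between 27380399 and 29968284 reads. Summed levels of 7 B cell markers were 1210 to 1521 FPKM in IL-10+ libraries and 1327 to 1804 FPKM in IL-10- libraries. In the test described below 3 of the 7 fell. Of all tested genes, that test called 9.18% lower and 10.6% higher, and the marker counts here are to be read beside these shares. Markers of plasma cells summed to 242.7 to 326.1 FPKM in IL-10+ libraries and 53.7 to 79.6 FPKM in IL-10- libraries, and all 4 tested of the 5 rose. The untested one, Tnfrsf17, stayed below 1 FPKM in every library. It had 0.538, 0.0878, 0.0850 and 0.0877 FPKM in IL-10+ libraries 1 to 4 and was listed at 0 in the IL-10- libraries. The 7 T cell markers summed to 2.18 to 4.37 FPKM in IL-10+ libraries and 4.82 to 6.04 FPKM in IL-10- libraries, and 5 of them stayed below 1 FPKM everywhere. Lck fell to 1.94 ± 0.494 FPKM in IL-10+ cells, against 4.86 ± 0.460 FPKM in IL-10- cells, and Trac had 1.29 ± 0.759 FPKM in IL-10+ cells and 0.593 ± 0.394 FPKM in IL-10- cells. Of the 7 dendritic cell markers, Flt3 and Batf3 reached 1 FPKM. Every marker of macrophages, mast cells, NK cells and erythroid cells stayed below 1 FPKM in all libraries, as did every neutrophil marker except S100a9. The part that plasma cell markers, B cell markers, Lck or Flt3 play in the changes below was not tested.

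The windows around the start sites of 4 members are shown because these genes had the largest changes of the circuit, in opposite directions. RefSeq windows on GRCm38.p6 were found for 10 of 10 members, each with 250 bases before and 50 after a start site, read 5′ to 3′ on the gene's strand. Capitals mark matches, on either strand, to 8 short motifs: CANNTG (E-box), GAAANNGAA (paired repeat of IRF sites), GGAANNGAA (ETS-IRF composite), GTGAAAG (Blimp-1 core), TGANTCA (Bach and AP-1 core), TGTTTAC (forkhead), CCCNNGGG (EBF) and TTCNNNGAA (BCL6 and STAT). Matches of different motifs share no base in these 4 windows. TGANTCA admits any middle base, so a match to it need not be the Bach and AP-1 core itself.
Prdm1, chr10:44458699-44458998, minus strand: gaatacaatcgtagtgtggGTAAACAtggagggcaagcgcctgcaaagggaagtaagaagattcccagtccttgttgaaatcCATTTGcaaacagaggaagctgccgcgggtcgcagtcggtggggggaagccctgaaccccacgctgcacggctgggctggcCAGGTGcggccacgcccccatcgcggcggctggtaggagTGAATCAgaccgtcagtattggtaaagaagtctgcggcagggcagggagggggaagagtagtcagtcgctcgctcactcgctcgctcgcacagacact
Bhlha15, chr5:144190036-144190335, plus strand: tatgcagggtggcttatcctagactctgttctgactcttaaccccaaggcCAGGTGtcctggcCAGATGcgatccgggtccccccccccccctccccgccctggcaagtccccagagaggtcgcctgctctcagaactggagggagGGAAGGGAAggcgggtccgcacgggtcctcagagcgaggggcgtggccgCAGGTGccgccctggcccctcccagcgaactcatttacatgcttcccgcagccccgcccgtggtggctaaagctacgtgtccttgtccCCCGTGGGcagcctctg
Irf4, chr13:30748983-30749282, plus strand: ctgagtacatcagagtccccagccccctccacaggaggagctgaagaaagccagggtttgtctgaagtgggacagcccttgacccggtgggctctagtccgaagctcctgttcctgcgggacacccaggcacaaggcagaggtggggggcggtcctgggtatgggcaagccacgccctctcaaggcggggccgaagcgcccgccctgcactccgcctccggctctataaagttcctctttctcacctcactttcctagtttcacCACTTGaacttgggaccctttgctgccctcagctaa
Bach2, chr4:32417185-32417484, plus strand: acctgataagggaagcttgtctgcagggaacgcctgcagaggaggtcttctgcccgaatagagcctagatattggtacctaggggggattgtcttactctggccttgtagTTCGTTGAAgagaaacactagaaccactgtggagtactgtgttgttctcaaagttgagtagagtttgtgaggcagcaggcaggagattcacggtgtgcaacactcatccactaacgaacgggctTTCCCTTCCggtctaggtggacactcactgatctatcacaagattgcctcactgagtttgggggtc

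The Prdm1 window held 2 E-boxes, 1 match to TGANTCA and 1 forkhead match, the last in reverse. The match to TGANTCA reads TGAATCA, with A as the free middle base. Bhlha15 had 3 E-boxes, 1 ETS-IRF composite and 1 EBF match. In the Irf4 window the single match was an E-box behind the start site, and the Bach2 window had 1 ETS-IRF composite, in reverse, and 1 BCL6 and STAT match. E-boxes occur in 72.3% of the 32851 windows of all genes, the EBF letters in 13.7% and the IRF pair in 8.56%. The BCL6 and STAT letters occur in 8.30%, the ETS-IRF composite in 8.24% and TGANTCA with any middle base in 7.81%. The Blimp-1 core occurs in 4.24% and the forkhead letters in 3.65%. A match describes letters and is not a bound site. The windows of Bach2 and Prdm1 both lie inside their genes, downstream of the first annotated start, at the start of 1 of 7 annotated transcripts for Bach2 and of 1 of 4 for Prdm1.

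In a fit without the replicate number, all 3 genes of the plasma cell side rose in IL-10+ cells, and 2 of the 7 genes of the B cell side, Bach2 and Pax5, fell. Genes were compared with limma on log2(FPKM + 1) over the 11329 genes that reached 1 FPKM in 4 or more libraries, and genes with a Benjamini-Hochberg adjusted p under 0.05 were called. Mitf did not reach that level, so 9 of the 10 members were tested, 5 were called and 4 were not. The fit called 19.7% of all tested genes, 10.6% as higher and 9.18% as lower, beside 3 and 2 of the 9 members. It did not use the pairing of libraries by replicate number that the data show. With that number as a block, 3 members were called higher and 5 lower, beside 20.4% and 33.3% of all tested genes. The groups did not overlap for the same 5 members, 3 higher and 2 lower, a pattern found in 12.2% and 13.0% of all tested genes. The median log2 change of the 6 tested B cell genes was -0.49, against -0.06 for all tested genes. In bulk RNA, fewer cells of a type and less RNA per cell cannot be told apart, and this holds for every level given here.

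**Figure D1:**
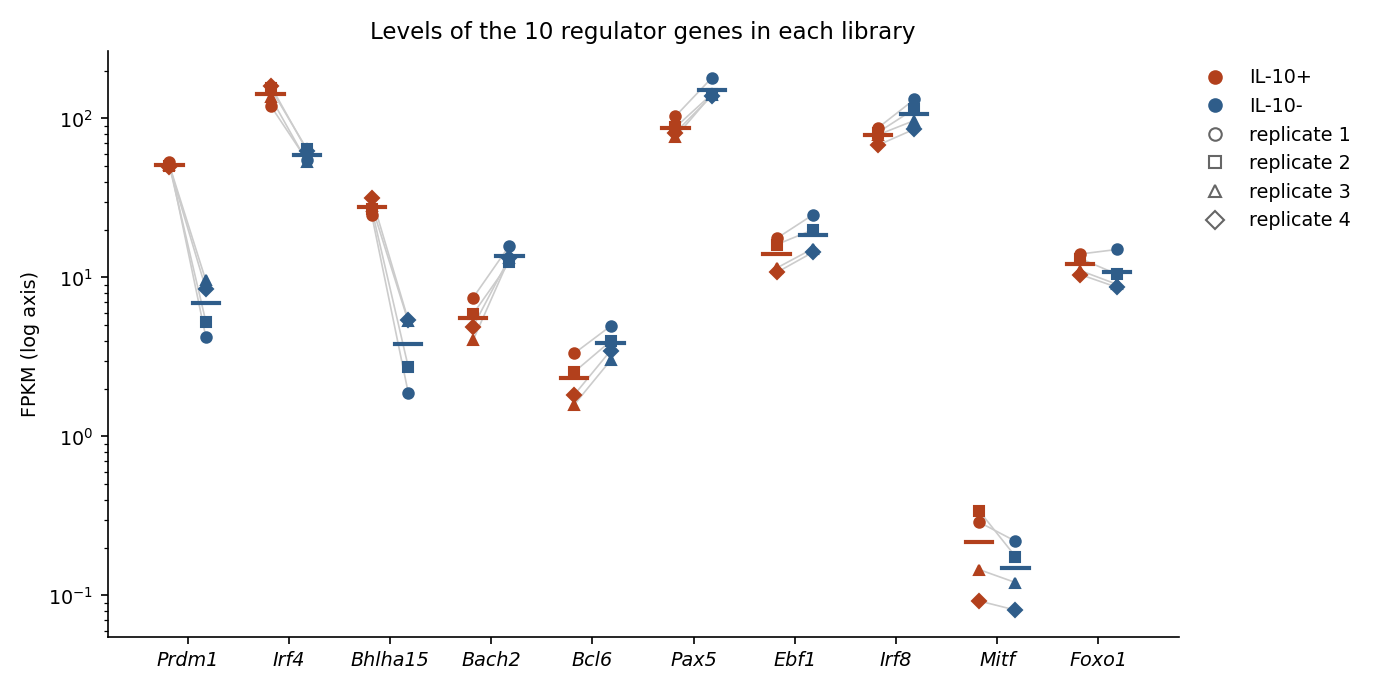
FPKM of the 10 regulator genes in each library on a log axis, IL-10+ (red) left of IL-10- (blue); symbols give the replicate number, grey lines join libraries of the same number and bars are group means. Prdm1, Irf4 and Bhlha15 lie wholly above their IL-10- values and Bach2 and Pax5 wholly below, while Mitf stays under 0.341 FPKM.

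Prdm1 (ENSMUSG00000038151, chr10:44437177-44528501, minus strand, 10 merged exon blocks) had 53.4, 50.4, 50.8 and 49.7 FPKM in IL-10+ libraries 1 to 4, against 4.22, 5.27, 9.56 and 8.49 FPKM in IL-10- libraries 1 to 4. The IL-10+ values were nearly equal while IL-10- libraries 3 and 4 held more than 1 and 2, and the groups were far apart. The SD was 1.61 FPKM around a mean of 51.1 in IL-10+ cells and 2.54 FPKM around 6.89 in IL-10- cells. Counted as reads, these were 7766 to 8183 in IL-10+ libraries and 660 to 1502 in IL-10- libraries. The log2 change was 2.78 (SE 0.209, limma adjusted p = 5.03e-05), the 12th largest rise of all tested genes. Ratios within a replicate number were 12.6, 9.55, 5.31 and 5.86, so their spread came from the IL-10- libraries.

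Bhlha15 (ENSMUSG00000052271, chr5:144190286-144194441, plus strand), which encodes Mist1, a basic helix-loop-helix factor of secretory cells, followed Prdm1 closely. It had 24.5, 26.7, 28.2 and 31.8 FPKM in IL-10+ libraries 1 to 4, against 1.88, 2.74, 5.29 and 5.39 FPKM in IL-10- libraries 1 to 4. Again IL-10- libraries 3 and 4 were the higher ones, and no IL-10- value came near an IL-10+ value. Behind these stood 2347 to 3106 reads in IL-10+ libraries and 184 to 564 reads in IL-10- libraries. The log2 change of 2.65 (SE 0.251, limma adjusted p = 0.000144) ranked 18th among the rises. Its within-number ratios of 13.0, 9.76, 5.33 and 5.90 ran in the same order as those of Prdm1.

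Irf4 (ENSMUSG00000021356, chr13:30749226-30766976, plus strand), the interferon regulatory factor whose dose steers B cells between germinal centre and plasma cell fates, was already abundant in IL-10- cells. Its values were 120.1, 155.0, 135.9 and 160.9 FPKM in IL-10+ libraries 1 to 4 and 54.4, 63.8, 53.2 and 62.6 FPKM in IL-10- libraries 1 to 4. Libraries 2 and 4 were the higher ones in both groups, and the lowest IL-10+ value lay well above the highest IL-10- value. The mean was 143.0 ± 18.6 FPKM in IL-10+ cells and 58.5 ± 5.47 FPKM in IL-10- cells (± SD, 4 libraries each), a log2 change of 1.27 (SE 0.110, limma adjusted p = 9.28e-05) and rank 289 among the rises. The ratio was steady, at 2.21, 2.43, 2.55 and 2.57 within replicate numbers 1 to 4.

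Bach2 (ENSMUSG00000040270, chr4:32238804-32586108, plus strand), a repressor of Prdm1 in B cells, had the largest fall of the circuit. It had 7.44, 5.88, 4.01 and 4.90 FPKM in IL-10+ libraries 1 to 4, against 15.9, 12.5, 13.2 and 13.3 FPKM in IL-10- libraries 1 to 4. Library 1 was the highest in both groups, and the groups did not overlap. The mean was 5.56 ± 1.47 FPKM in IL-10+ cells and 13.7 ± 1.48 FPKM in IL-10- cells (± SD, 4 libraries each), a log2 change of -1.19 (SE 0.154, limma adjusted p = 0.000849) and the 31st largest fall of all tested genes. Within replicate numbers 1 to 4 the IL-10+ level was 0.469, 0.472, 0.304 and 0.368 of the IL-10- level. An antisense gene, Bach2os, shares 537 exonic bases with it and had 0.488 ± 0.124 FPKM in IL-10+ libraries and 1.08 ± 0.0961 FPKM in IL-10- libraries. The sources used here do not say whether counting used strand, and without it reads of that stretch cannot be told apart.

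Pax5 (ENSMUSG00000014030, chr4:44524757-44710487, minus strand), which maintains B cell identity, was the most abundant member in IL-10- cells. Its values were 103.2, 87.9, 76.2 and 81.5 FPKM in IL-10+ libraries 1 to 4 and 179.9, 142.3, 141.0 and 138.7 FPKM in IL-10- libraries 1 to 4. Replicate 1 was the highest in both groups, and every IL-10+ value was below every IL-10- value. The mean was 87.2 ± 11.7 FPKM in IL-10+ cells and 150.5 ± 19.7 FPKM in IL-10- cells (± SD, 4 libraries each), a log2 change of -0.78 (SE 0.119, limma adjusted p = 0.00209). Within replicate numbers 1 to 4 the IL-10+ level was 0.573, 0.618, 0.540 and 0.587 of the IL-10- level. Restricted to replicates 1 and 2, the change was -0.74 with an adjusted p of 0.0521 in limma. On the opposite strand 5730488B01Rik, with 5.74 ± 1.10 FPKM in IL-10+ libraries and 10.7 ± 1.92 FPKM in IL-10- libraries, shares 636 of its exonic bases, and Gm12462 shares 125.

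Each of these 5 changes was called in all 8 fits that left out 1 library, and all but that of Pax5 were also called within replicates 1 and 2 alone and within 3 and 4 alone. Their exact two-sided permutation p, 4 libraries against 4 without pairing, was 0.0286, which is the smallest such a test can give. It treats the libraries as unpaired, although the replicate numbers pair them.

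Bcl6, Irf8 and Ebf1 were lower in IL-10+ cells within every replicate number, yet did not pass the limma test without the numbers. Bcl6 (ENSMUSG00000022508, chr16:23965052-23988852, minus strand), the repressor that directs the germinal centre programme, had 3.33, 2.54, 1.58 and 1.82 FPKM in IL-10+ libraries 1 to 4 and 4.94, 3.97, 3.01 and 3.47 FPKM in IL-10- libraries 1 to 4. Only IL-10+ library 1 reached into the IL-10- range. The log2 change was -0.56 (95% interval -0.98 to -0.15, limma adjusted p = 0.0630), and leaving out that library gave an adjusted p of 0.0213. With the replicate number as a block, the adjusted p was 0.000638.

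Irf8 (ENSMUSG00000041515, chr8:120736358-120756694, plus strand), an interferon regulatory factor that works with PU.1 in B cells, had 87.0, 81.5, 78.7 and 67.8 FPKM in IL-10+ libraries 1 to 4, against 131.5, 114.5, 96.9 and 85.5 FPKM in IL-10- libraries 1 to 4. Library 1 was the highest and library 4 the lowest in both groups, and IL-10+ library 1 was just above IL-10- library 4. The log2 change was -0.43 (95% interval -0.74 to -0.11, limma adjusted p = 0.0644), the adjusted p was 0.0280 without IL-10- replicate 4, and the replicate block gave 0.00175.

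Ebf1 (ENSMUSG00000057098, chr11:44617317-45008091, plus strand), an early B cell factor, had 17.6, 16.1, 11.4 and 10.7 FPKM in IL-10+ libraries 1 to 4 and 24.8, 19.9, 15.2 and 14.4 FPKM in IL-10- libraries 1 to 4. Replicates 1 and 2 were above 3 and 4 in both groups, by more than the groups differed. Its log2 change was -0.38 (95% interval -0.85 to 0.09, limma adjusted p = 0.237) and its within-number ratios were 0.710, 0.806, 0.754 and 0.745. With the block the adjusted p was 0.000602. The exact permutation p without pairing was 0.0571 for Bcl6, 0.0571 for Irf8 and 0.171 for Ebf1.

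With the replicate number as a block, 3 members were called higher and 5 lower, beside 20.4% and 33.3% of all tested genes. The block called a large share of the whole table, and the gain of Bcl6, Irf8 and Ebf1 is to be read against that share.

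**Figure D2:**
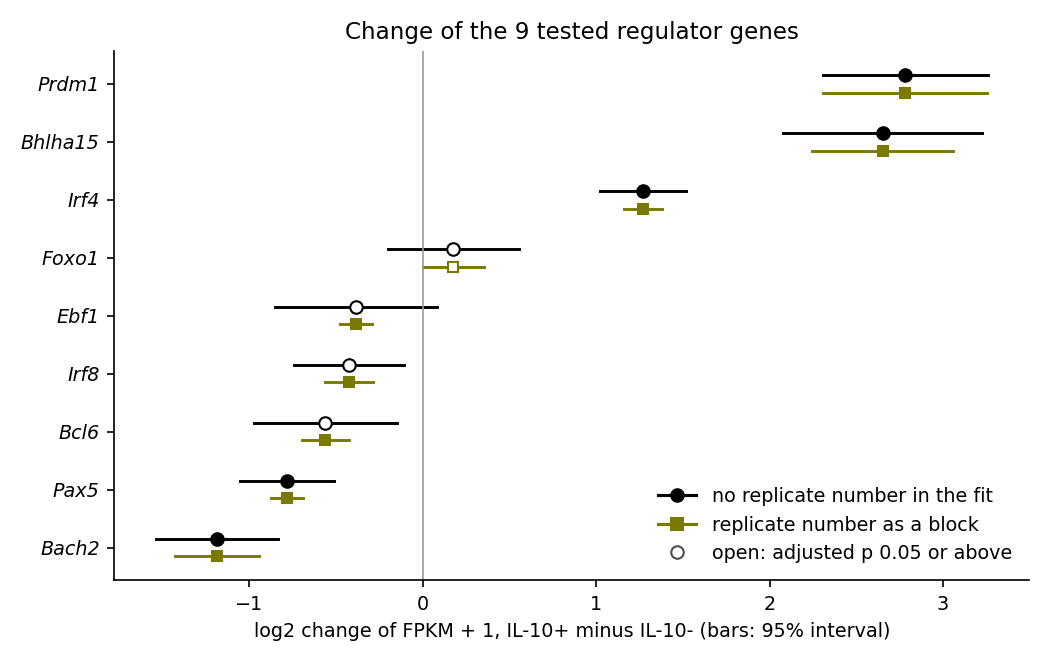
Log2 change of FPKM + 1, IL-10+ minus IL-10-, of the 9 tested regulator genes with 95% intervals, without the replicate number (black circles) and with it as a block (olive squares); open symbols have an adjusted p of 0.05 or above. Estimates are equal in both fits, from 2.78 for Prdm1 to -1.19 for Bach2, and the intervals of Ebf1, Irf8 and Bcl6 are narrower with the block.

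Foxo1 (ENSMUSG00000044167, chr3:52268336-52353221, plus strand), a forkhead factor restrained by PI3K and AKT signalling, was the 1 tested gene of the B cell side with a positive log2 change. It had 14.0, 13.1, 11.0 and 10.4 FPKM in IL-10+ libraries 1 to 4, against 15.0, 10.5, 9.05 and 8.68 FPKM in IL-10- libraries 1 to 4. The groups overlapped, with the highest value of all in IL-10- library 1, and the level was higher in IL-10+ cells in 3 of 4 numbers. The log2 change was 0.18 (95% interval -0.20 to 0.56, limma adjusted p = 0.504), and the block gave an adjusted p of 0.0827. An antisense gene, Gm20402, shares 674 exonic bases with Foxo1, and it is not among the genes of the deposited table.

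Mitf (ENSMUSG00000035158, chr6:97807052-98021349, plus strand), a basic helix-loop-helix leucine zipper factor described as holding back Irf4 in resting B cells, was barely present. It had 0.289, 0.341, 0.145 and 0.0923 FPKM in IL-10+ libraries 1 to 4, against 0.219, 0.175, 0.120 and 0.0808 FPKM in IL-10- libraries 1 to 4. These stand for 49, 59, 26 and 16 reads in IL-10+ libraries and 38, 31, 21 and 15 reads in IL-10- libraries. The IL-10+ level was the higher in all 4 replicate numbers, with ratios of 1.32, 1.94, 1.21 and 1.14. The level differed more between replicate numbers than between groups, and the exact two-sided permutation p over the libraries, without pairing, was 0.343.

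**Figure D3:**
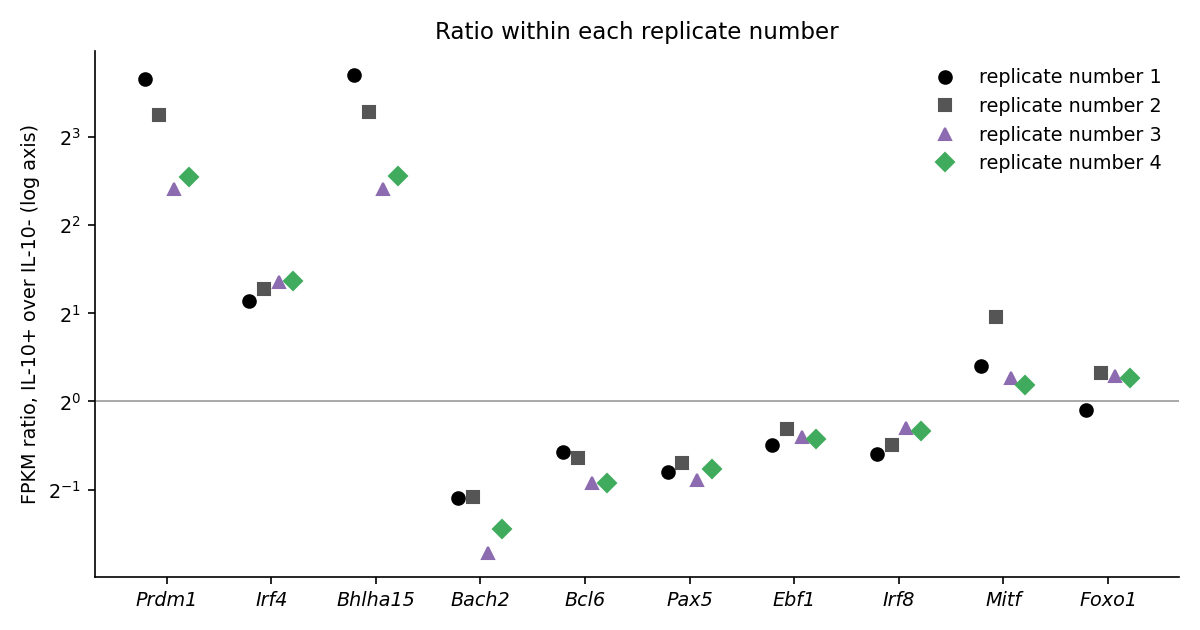
Ratio of FPKM in IL-10+ over IL-10- libraries of the same replicate number, on a log axis, for each regulator gene; the grey line marks equal levels. Prdm1 and Bhlha15 run from 13.0 down to 5.31, Irf4 stays between 2.21 and 2.57, and Bach2, Bcl6, Pax5, Ebf1 and Irf8 lie below 1 in every number. Mitf, with few reads, lies above 1 in every number.

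FPKM is scaled by length, so levels can be ranked between members within a group. In IL-10+ cells the order of mean FPKM was Irf4, Pax5, Irf8, Prdm1, Bhlha15, Ebf1, Foxo1, Bach2, Bcl6 and Mitf. The ranges of neighbours over the 4 libraries did not overlap, except those of Pax5 and Irf8 and of Ebf1 and Foxo1. In IL-10- cells the order was Pax5, Irf8, Irf4, Ebf1, Bach2, Foxo1, Prdm1, Bcl6, Bhlha15 and Mitf. There the ranges of Pax5, Irf8 and Irf4 stood apart from each other and from the rest and that of Mitf stood below all others, while from Ebf1 to Bhlha15 each range overlapped the next.

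Because opposing members moved in opposite directions, their ratio within a library differed between the groups by a larger factor than either level. These ratios follow from the levels above and are given as descriptions. Prdm1 over Bach2 was 7.18, 8.56, 12.7 and 10.2 in IL-10+ libraries 1 to 4, against 0.266, 0.424, 0.724 and 0.638 in IL-10- libraries 1 to 4, so Prdm1 was above Bach2 in every IL-10+ library and below it in every IL-10- library. Irf4 over Irf8 in FPKM also lay on opposite sides of 1. It was 1.38, 1.90, 1.73 and 2.37 in IL-10+ libraries and 0.413, 0.557, 0.549 and 0.732 in IL-10- libraries. That crossing depends on the exon lengths. Counted as reads, Irf4 (16126) was below Irf8 (16809) in IL-10+ library 1 and above it in the other IL-10+ libraries. Prdm1 over Pax5 did not cross 1. It was 0.518, 0.573, 0.667 and 0.611 in IL-10+ libraries and 0.0235, 0.0371, 0.0679 and 0.0612 in IL-10- libraries, so FPKM of Pax5 remained the larger in all 8. Prdm1 over Bcl6 was 16.1 to 32.1 in IL-10+ libraries and 0.855 to 3.18 in IL-10- libraries, already above 1 in 3 of the 4 IL-10- libraries.

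**Figure D4:**
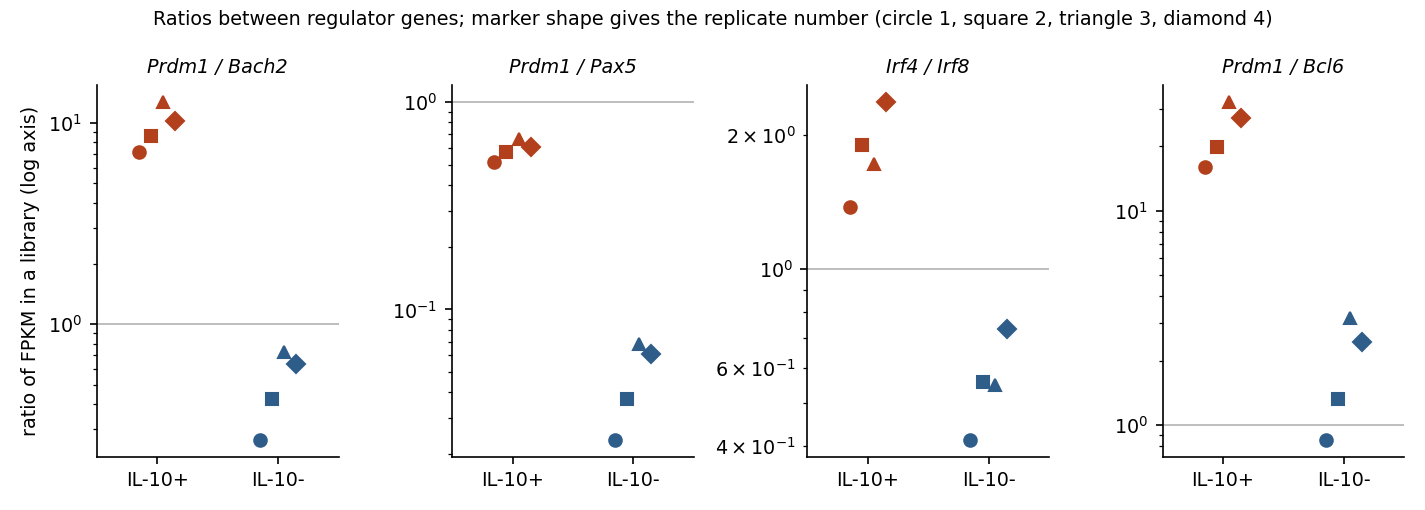
Ratio of FPKM between opposing regulator genes in each library on log axes, IL-10+ (red) left of IL-10- (blue), with the replicate number as symbol and a grey line at 1. Prdm1 over Bach2 (means 9.64 and 0.513) and Irf4 over Irf8 (means 1.85 and 0.563) lie on opposite sides of the line, while Prdm1 over Pax5 stays under it in both groups.

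Likeness to Prdm1 and Bach2 was measured as the root mean square distance between centred log2(FPKM + 1) profiles over the 8 libraries, for 9595 tested genes with a known symbol. Nearest to Prdm1 were Hid1 (0.119), Bhlha15 (0.151) and Sec24d (0.202), the last a coat protein of vesicles that leave the endoplasmic reticulum. Hid1 had 21.0 ± 2.19 FPKM in IL-10+ cells and 2.74 ± 1.26 FPKM in IL-10- cells (± SD, 4 libraries each). Irf4 came at place 91. Nearest to Bach2 were Tlr9 (0.0737), a receptor for unmethylated DNA, Spib (0.0959), an ETS factor that pairs with IRF proteins, and Marcksl1 (0.108). Tlr9 had 9.17 ± 2.03 FPKM in IL-10+ cells and 23.7 ± 2.92 FPKM in IL-10- cells (± SD, 4 libraries each). Pax5 was at place 67 for Bach2, Bcl6 at 244, Irf8 at 584 and Ebf1 at 657.

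Among the DNA-binding partners and co-factors of the members, 4 of 24 tested genes rose and 6 fell (7 and 13 with the replicate block), and the median log2 change was -0.13. Of all tested genes, 10.6% were called higher and 9.18% lower, or 20.4% and 33.3% with the block. Counts of this list and of those below are to be read beside these shares. The rises were led by Xbp1, the driver of the secretory programme, at 187.8 ± 12.8 FPKM in IL-10+ cells and 46.1 ± 10.7 FPKM in IL-10- cells (log2 change 2.03, limma adjusted p = 5.03e-05). Pou2af1, the B cell co-activator OBF-1, rose to 680.5 ± 42.2 FPKM in IL-10+ cells, against 337.6 ± 28.7 FPKM in IL-10- cells. Partners of Irf4 on DNA led the falls. Spib had 73.3 ± 19.6 FPKM in IL-10+ cells and 162.4 ± 28.0 FPKM in IL-10- cells, and Batf had 65.7 ± 11.4 FPKM in IL-10+ cells and 116.9 ± 7.09 FPKM in IL-10- cells. The other ETS partner, Spi1 (PU.1), was not called, at 26.0 ± 1.20 FPKM in IL-10+ cells and 27.2 ± 3.42 FPKM in IL-10- cells. Chosen after their values were seen, the E-protein gene Tcf4 (log2 change 0.35) and the zinc finger gene Zbtb20 (0.56) complete the rises. The count of falls was 3 without IL-10+ replicate 3 or 4 or without IL-10- replicate 1 or 3.

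Of 26 listed relatives of the members in the same protein families, 22 were in the table, 15 were tested and 1 was called, beside 19.7% of all tested genes. This was Bach1, which had 6.33, 4.94, 5.57 and 4.78 FPKM in IL-10+ libraries 1 to 4, against 2.53, 2.15, 2.03 and 2.27 FPKM in IL-10- libraries 1 to 4. Its groups did not overlap, and its log2 change was 0.98 (SE 0.0925, limma adjusted p = 0.000144), opposite in sign to that of Bach2. At an unadjusted p under 0.05 limma had 2 relatives higher and 5 lower, and with the replicate block 4 higher and 5 lower after adjustment. Without IL-10+ replicate 1 a single relative was called lower. Among IRF genes, Irf5 had 45.3 ± 1.39 FPKM in IL-10+ cells and 51.8 ± 5.26 FPKM in IL-10- cells (log2 change -0.19, limma adjusted p = 0.141, 0.0229 with the replicate block). The forkhead gene Foxo3 had 8.62 ± 1.85 FPKM in IL-10+ cells and 7.84 ± 2.12 FPKM in IL-10- cells (log2 change 0.13, limma adjusted p = 0.663, 0.0445 with the replicate block). Both genes were chosen after their values were seen.

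Genes described as repressed by Blimp-1 were largely lower in IL-10+ cells. Of 13 tested, 7 fell and 11 with the replicate block, and the list's median log2 change was -0.79. Of all tested genes 9.18% fell, and 33.3% with the block. Fcer2a, the low-affinity IgE receptor CD23, had the largest fall of all tested genes, with 24.2, 11.9, 4.39 and 7.74 FPKM in IL-10+ libraries 1 to 4, against 129.3, 89.9, 50.6 and 57.6 FPKM in IL-10- libraries 1 to 4. The log2 change was -2.80 (SE 0.473, limma adjusted p = 0.00365). Ciita, the class II transactivator, had 15.4 ± 1.88 FPKM in IL-10+ cells and 29.1 ± 6.22 FPKM in IL-10- cells, and Id3, an inhibitor of E-proteins, had 12.4 ± 1.89 FPKM in IL-10+ cells and 22.0 ± 1.42 FPKM in IL-10- cells, both called and both named after their values were seen. Myc, also listed, was lower within every replicate number, with 85.5 ± 18.1 FPKM in IL-10+ cells and 95.7 ± 20.0 FPKM in IL-10- cells (log2 change -0.16). Its limma adjusted p was 0.581 without the replicate block and 0.00716 with it.

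Antibody-secreting cell genes rose in 14 of 15 tested (17 listed), with a median log2 change of 1.76, and the count was 14 in each fit that left out 1 library and 15 with the replicate block. Jchain, which joins IgM and IgA polymers, had 123.3, 71.8, 44.3 and 48.7 FPKM in IL-10+ libraries 1 to 4, against 11.1, 10.4, 11.8 and 8.58 FPKM in IL-10- libraries 1 to 4. The IL-10+ values spread widely and all lay above the IL-10- values (log2 change 2.56, limma adjusted p = 0.000402). Sec24d had 28.5 ± 3.27 FPKM in IL-10+ cells and 4.62 ± 1.93 FPKM in IL-10- cells. Immunoglobulin genes took 14.6 ± 1.62% of summed FPKM in IL-10+ libraries and 4.19 ± 0.439% in IL-10- libraries (± SD, 4 libraries each), and rescaling without them and without mitochondrial genes left the calls of all members as they were.

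Genes described as activated by Pax5 had 7 of 14 tested called lower and 1 higher (10 and 3 with the replicate block), and the list's median was -0.43 on the log2 scale. The shares of all tested genes were 9.18% lower and 10.6% higher (33.3% and 20.4% with the block). Besides Fcer2a, Cd72, a co-receptor that damps B cell receptor signals, led the falls, with 19.0 ± 7.45 FPKM in IL-10+ cells and 44.8 ± 16.0 FPKM in IL-10- cells (log2 change -1.21, limma adjusted p = 0.0253, not called in 4 of 8 fits without 1 library). Vpreb3 was the 1 called higher, with 29.8 ± 4.85 FPKM in IL-10+ cells and 20.2 ± 2.87 FPKM in IL-10- cells (log2 change 0.54, adjusted p = 0.0313 in limma, not called in 5 of 8 such fits). The count of falls was 3 without IL-10+ replicate 4 and 4 without IL-10+ replicate 2, IL-10+ replicate 3 or IL-10- replicate 1, and the count of rises ranged from 0 to 2. Of 5 tested genes described as repressed by Pax5, 4 rose, namely Jchain, Xbp1, Emb and Notch1, with a list median of 0.59. Notch1 (limma adjusted p = 0.0312) was not called in 5 of 8 fits without 1 library. With the replicate block 4 were called higher and 1, Flt3, lower.

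Among genes described as activated by Foxo1, 1 of 14 tested rose and 2 fell (3 and 9 with the replicate block), and the median log2 change was -0.38. Beside them, 10.6% of all tested genes rose and 9.18% fell (20.4% and 33.3% with the block). Cxcr4, the receptor for Cxcl12, had 46.4, 56.3, 23.3 and 32.2 FPKM in IL-10+ libraries 1 to 4, against 13.3, 16.4, 5.76 and 8.69 FPKM in IL-10- libraries 1 to 4. Its groups did not overlap, and replicates 1 and 2 were the higher ones in both (log2 change 1.77, limma adjusted p = 0.00776). Sesn1, a stress-response gene, was among the falls and had 4.97 ± 1.24 FPKM in IL-10+ cells and 8.44 ± 1.52 FPKM in IL-10- cells (log2 change -0.67, adjusted p = 0.0170 in limma). Without IL-10+ replicate 3 neither fall was called, without IL-10- replicate 2 the count was 1, and without IL-10- replicate 1 a second gene was called higher.

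Germinal centre genes, listed beside Bcl6, had 2 of 10 tested called higher and 1 lower (4 and 6 with the replicate block), and the list's median was -0.32 on the log2 scale. Over all tested genes the shares were 10.6% higher and 9.18% lower (20.4% and 33.3% with the block). Nuggc, a nuclear GTPase of germinal centre B cells, had 9.39, 7.04, 7.10 and 6.22 FPKM in IL-10+ libraries 1 to 4, against 0.932, 1.09, 1.64 and 1.29 FPKM in IL-10- libraries 1 to 4 (log2 change 1.91, limma adjusted p = 4.16e-05). The lowest IL-10+ value was far above every IL-10- value. Rgs13, a regulator of G protein signalling, had 2.31 ± 0.408 FPKM in IL-10+ cells and 0.378 ± 0.153 FPKM in IL-10- cells, and it passed the filter on low values through its IL-10+ libraries alone, so it had to differ. Cxcr5, the follicle-homing receptor, fell to 54.3 ± 1.39 FPKM in IL-10+ cells, against 73.6 ± 6.89 FPKM in IL-10- cells (log2 change -0.43, limma adjusted p = 0.00524). Without IL-10+ replicate 1, 2 of the list were called lower.

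**Figure D5:**
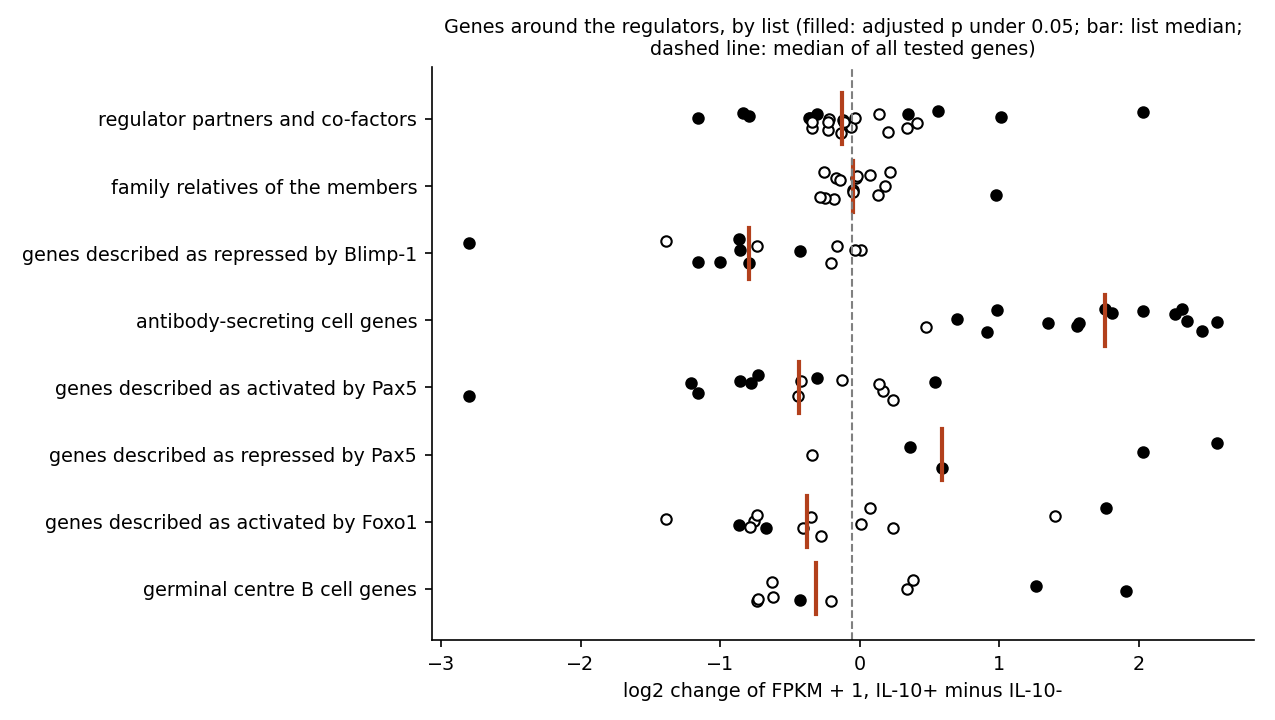
Log2 change of FPKM + 1, IL-10+ minus IL-10-, of every tested gene in 8 lists around the regulators; filled points have an adjusted p under 0.05, red bars are list medians and the dashed line is the median of all tested genes (-0.06). Antibody-secreting cell genes lie to the right (median 1.76), genes described as repressed by Blimp-1 to the left (-0.79), and family relatives close to the line apart from Bach1 at 0.98.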

How the data were processed

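RNA was measured in 4 IL-10+ and 4 IL-10- libraries, grouped by their titles and matched to table columns by the names in their descriptions. The deposited table holds FPKM made by the authors. HISAT2 2.1.0, HTSeq 0.6.0 and build mm10 are named, without their roles, per the submitters' processing notes. Annotation release, strandedness and treatment of shared reads: not given in the sources used here. Multiplied by GENCODE M21 exon length and 1 total per library, 93.5% to 93.6% of the values above 0 gave whole reads within 0.05, and 1 read in 1 kb was worth 0.0334 to 0.0365 FPKM. No libraries of a group were near-copies (recovered reads differed with a chi-square of 9.00 to 82.9 per degree of freedom).

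Tests between groups used limma 3.58.1 (R 4.3.3) with a variance trend and no replicate number, after adding a pseudocount of 1 and taking log2, over the 11329 genes reaching 1 FPKM in 4 or more libraries. All adjusted p-values are Benjamini-Hochberg values over these genes, and the procedure was tested on simulated data. The simulation drew independent noise for each gene and library, without a replicate effect. It therefore cannot decide how the fit behaves on libraries paired by number. This scale understates the fold change of genes with low values. Exact permutation tests used Python 3.11.15 and scipy 1.17.1. After removing group means, same-numbered libraries of both groups correlated across genes at 0.712, 0.583, 0.621 and 0.700, and no library correlated better with another number, so the numbers pair the samples. Libraries of different number correlated at 0.279 to 0.435 between 1 and 2 or 3 and 4, and at -0.385 to -0.612 otherwise. The pairing rests on the data, not the labels, and block values are printed beside results whose call they alter.

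Members, gene lists and motifs were chosen with earlier results of these data known. Lists share genes, among them Spib, Fcer2a, Xbp1 and Jchain. Named were all members, up to 2 called genes with the largest change in each direction per list, the most abundant marker genes, and the 3 genes most like Prdm1 and Bach2, with predicted and immunoglobulin genes left out of the last. Some marker genes that the rule takes are given only in sums, and some items that it takes are not reported here. Alternatives were pseudocounts of 0.1 and 0.5, no filter, at least 5 FPKM, other scalings, the replicate block, leaving out each library, replicates 1 and 2 or 3 and 4 alone, and no variance trend.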

Additional observations from a re-analysis of the deposited data

Results flagged for a closer look

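Of 90 sets of 4 libraries, 5 had a library far from the other 3 for a gene, and chance gives about 1 in 20. Among the regulators this was Pax5 in IL-10- replicate 1, with 179.9 FPKM against 138.7 to 142.3 FPKM in the other IL-10- libraries. Without that library the fall of Pax5 was still called. Rgs13 had 0.1511 FPKM in IL-10- replicate 1 and 0.4239 to 0.4723 FPKM in the others. Markers of other cells gave the remaining 3, none above 1.209 FPKM. S100a8 had 0.1546 FPKM in IL-10+ replicate 2 and was listed at 0 in the other IL-10+ libraries. S100a9 had 1.209 FPKM in IL-10- replicate 2, beside at most 0.137 FPKM in the others, and Trac had 1.178 FPKM in IL-10- replicate 3, beside at most 0.458 FPKM.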

How the results depend on the processing

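Over 19 alternatives, 3 members were called higher in every one, and no member's change reversed. The count called lower, 2, became 5 with the replicate block, 5 with median-of-ratios scaling and the replicate block, and 4 within replicates 3 and 4 alone, and it was 2 to 3 when a library was left out. Of 170 member changes under an alternative, 158 kept their side of the threshold, 11 of Bcl6, Irf8 and Ebf1 passed it, and that of Pax5 within replicates 1 and 2 did not. Genes called over the whole table numbered 2236, and 6083 with the replicate block, 5719 with that block after median-of-ratios scaling, 1106 within replicates 1 and 2, and 1621 to 2055 without 1 library. The block pairs libraries by number, and the other causes were not tested. Of 304 list counts, 245 stayed within 1.5 times and 59 did not. With at least 5 FPKM, Bach1 was not tested. Values of a few reads, as for Mitf, limit any comparison there.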
